A study of Mus musculus with 16 samples.

Results

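The Kruppel-like factors examined here are the 8 genes Klf2, Klf3, Klf4, Klf5, Klf6, Klf9, Klf10 and Klf13, taken by gene symbol from the platform annotation, out of 16593 genes named on the array. They are read by 11 of its 25697 probes. RNA was measured on 16 Illumina bead arrays, 1 for each sorted population of crypt cells from the duodenum of transgenic mice (mixed B6/129S6 background, aged 8 to 12 weeks). All mice, the controls included, carried green EGFP as a reporter of Lgr5, a stem cell gene, and drank doxycycline at 4 mg/ml in 1% sucrose for 24 h. In the BRAF line the drug switched on a red TdTomato transgene with BRAF(V600K), an oncogenic form of the kinase BRAF, and in the luciferase line (luc) a red TdTomato transgene with luciferase.

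Cells were sorted into 4 gates. G is green without the red transgene, RG is green and red, R is red without green, and NEG has neither colour. The BRAF line gave all 4 gates from each of 3 mice (BRAF G, BRAF RG, BRAF NEG and BRAF R, n = 3 each), and the luciferase line gave luc G and luc RG from each of 2 mice (n = 2 each). Mice of a line share their number across gates. The promoter that drives the transgenes is not named in the sources used here, and line and transgene cannot be told apart. In bulk samples such as these, fewer cells of a type and less RNA per cell cannot be told apart either. The number of arrays limits the precision of every value.

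The labelled gates were set against marker genes. Lgr5 averaged 8.81 in luc G and 8.52 in BRAF G on the log2 intensity scale, against 7.12 in luc RG and 7.47 in BRAF RG, so it was lower in the red gates of both lines although all 4 are labelled Lgr5-EGFP-positive. It averaged 7.82 in BRAF NEG and 6.95 in BRAF R. Leukocyte markers set BRAF NEG apart: the summed intensity of 19 of them was 22032 to 31400 there and 1873 to 2837 on every other array. Enteroendocrine markers summed to 46829 to 47457 in luc RG and to 9039 to 11122 in luc G, with 28248 to 62730 in BRAF R. The arrays of BRAF R and luc RG resembled their own group least, with mean correlations to the rest of the group of 0.940 to 0.955 in BRAF R and 0.941 in luc RG, against 0.967 to 0.991 elsewhere.

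Kruppel-like factors are zinc-finger proteins that bind GC-rich boxes and CACCC boxes in promoters and switch genes on or off. In the intestinal epithelium Klf4 is known from differentiated cells and, in the mouse colon, for the maturation of goblet cells, whereas Klf5 is known from the dividing cells of the crypt. Klf6 and Klf10 are induced quickly by growth factors or TGF-beta, Klf3 is mainly a repressor, Klf9 and Klf13 bind GC-rich basic transcription elements, and Klf2 is best known from endothelium and resting T cells.

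The RefSeq promoter table of build GRCm38.p6, with windows from 250 bases before to 50 bases after the start of transcription, held 6 of the 8 members: Klf2, Klf3, Klf4, Klf6, Klf9 and Klf13. The windows of Klf4 (chr4:55532426-55532725, minus strand) and Klf6 (chr13:5861239-5861538, plus strand) are shown because these genes had the largest log2 differences among the members. Capitals mark GC boxes (GGGCGG on either strand) and CACCC boxes (CACCC on either strand), the letters that proteins of the family are known to bind.
Klf4: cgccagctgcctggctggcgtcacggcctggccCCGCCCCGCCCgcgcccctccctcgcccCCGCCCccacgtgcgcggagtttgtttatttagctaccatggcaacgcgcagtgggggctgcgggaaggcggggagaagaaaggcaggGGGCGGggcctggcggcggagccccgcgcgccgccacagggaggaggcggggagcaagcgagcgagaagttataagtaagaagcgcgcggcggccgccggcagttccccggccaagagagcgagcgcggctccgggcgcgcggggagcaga
Klf6: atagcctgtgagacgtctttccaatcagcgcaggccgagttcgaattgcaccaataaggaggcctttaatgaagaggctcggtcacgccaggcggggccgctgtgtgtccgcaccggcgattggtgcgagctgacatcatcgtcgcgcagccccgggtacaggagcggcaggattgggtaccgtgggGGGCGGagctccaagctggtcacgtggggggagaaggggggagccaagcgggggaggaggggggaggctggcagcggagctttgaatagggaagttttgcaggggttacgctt
The Klf4 window held 4 GC boxes on both strands, 2 of which overlap, and the Klf6 window held 1. Neither held a CACCC box. GC and CACCC boxes can share bases. A GC box was present in 5 of the 6 member windows and in 35.7% of the 32851 windows of the table. A CACCC box was present in 4 of 6 and in 57.5% of all windows. An AP-1 site (TGANTCA), the letters bound by Fos and Jun proteins, was in 1 of 6, that of Klf9, and in 7.81% of all windows. A CArG box, the letters bound by serum response factor, was in 0 of 6 and in 1.63% of all windows. A CRE core (TGACG), the letters bound by CREB proteins, was in 5 of 6, all but that of Klf6, and in 20.8% of all windows, and a TATA box (TATAAA) was in 0 of 6 and in 13.6%. All motifs were searched on both strands. These matches describe the letters of the windows only.

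Levels are given as log2 of the deposited intensity, which includes background, so that fold changes understate the change of dim genes. A gene was tested if the signal of a probe exceeded the median of its array on 2 arrays or more. Of the 11 member probes 10 passed, and 7 of the 8 genes were tested among 10607 genes, each by its brightest probe. A difference was called at a limma adjusted p under 0.05 (Benjamini-Hochberg over all 10607 genes). Levels of different probes are not compared with each other.

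**Figure D1:**
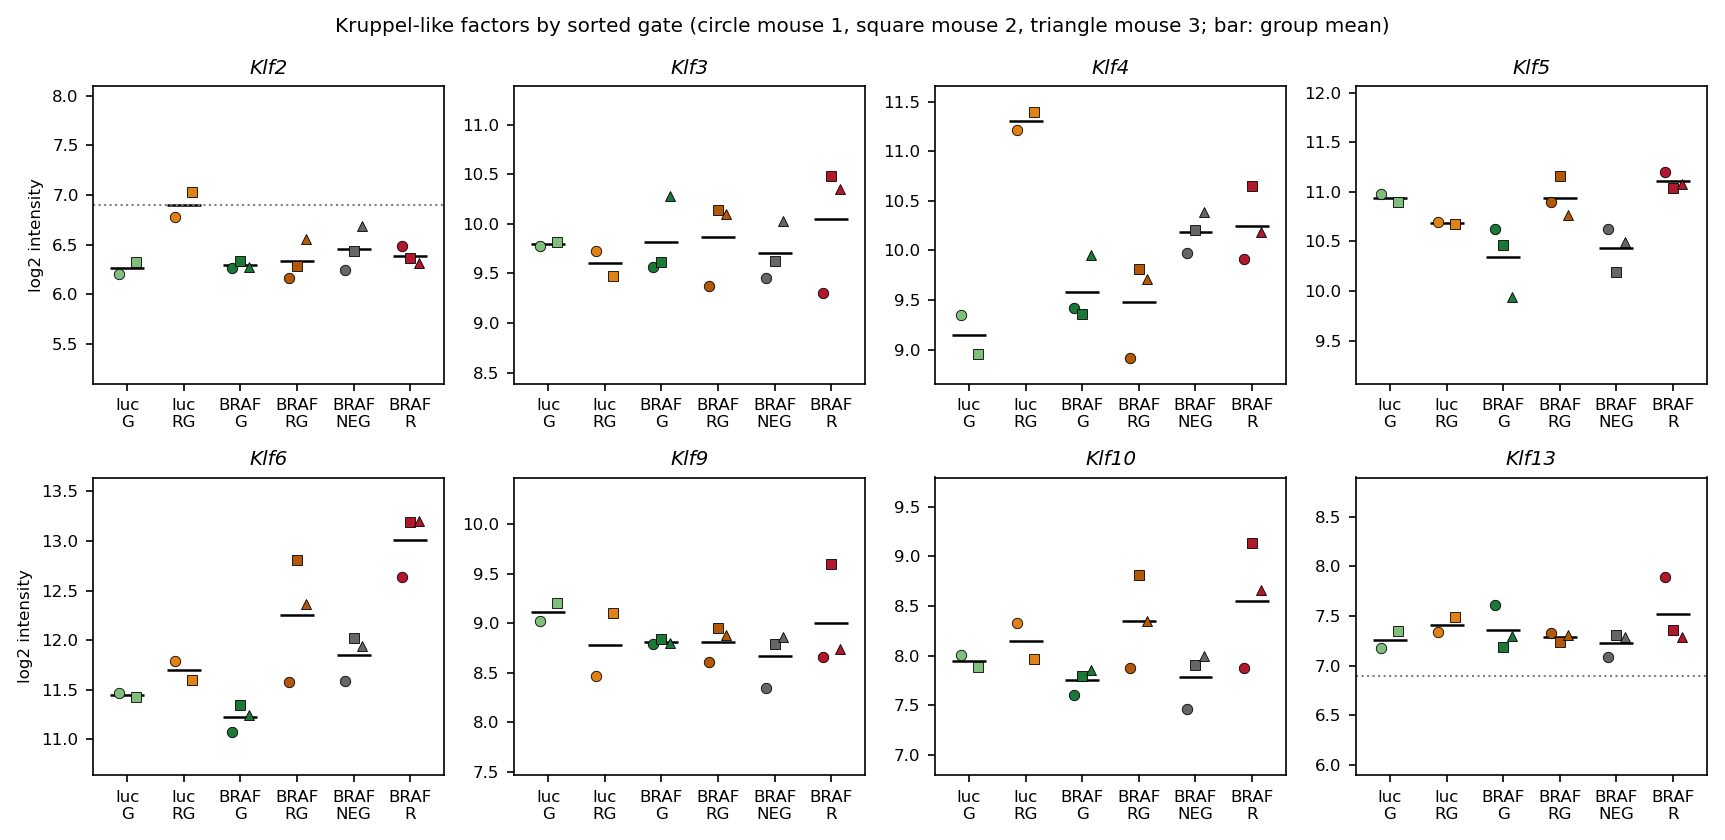
Log2 intensity of the 8 genes (brightest probe of each) on all 16 arrays by group; symbols show mice, bars the group means, each vertical axis spans 3 log2 units, and the dotted line in the Klf2 and Klf13 panels is the array median. Klf4 stands at 11.21 and 11.40 in luc RG, above every other array, and Klf6 is highest in BRAF R, at 12.64 to 13.20, where 2 of its 3 arrays lie above all others.

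Across the 5 comparisons of 2 gates within a line, calls were made for 3 members. Klf4 rose in the red gate of the luciferase line, and Klf5 and Klf6 rose in the red gate without green (R) of the BRAF line. Of the 7 members, 0 passed in BRAF RG against BRAF G, while 0.801% of all genes did. In BRAF R against BRAF NEG, 2 of 7 passed, both higher, against 12.6% of all genes. In luc RG against luc G, 1 of 7 passed, against 11.9% of all genes. Between the gates without red, BRAF G against BRAF NEG, 0 of 7 passed, against 2.21% of all genes. Between the red gates, BRAF R against BRAF RG, 0 of 7 passed, also against 2.21% of all genes. No result about the members as a group is read from 1 or 2 calls beside backgrounds of 11.9% and 12.6%. With the mouse as a fixed block, 1 member was called in BRAF RG against G, beside 1.89% of all genes in that fit. In BRAF R against RG 2 were called, beside 5.4%, and in BRAF R against NEG 3 were called, beside 16.8%. The medians over the 7 members were 0.05, 0.34, 0.15, -0.03 and 0.21 in these 5 comparisons, where the medians over all genes were -0.02, -0.01, -0.01, 0.04 and 0.00.

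Between lines, 1 of 7 members passed in BRAF RG against luc RG, Klf4, which was lower, against 16.6% of all genes. In BRAF G against luc G, 0 of 7 passed, against 0.217% of all genes. The comparison of the red-gate effect between lines, (BRAF RG minus BRAF G) minus (luc RG minus luc G), passed for 1 of 7 members, again Klf4, against 0.481% of all genes. The comparison of that effect between green and non-green BRAF cells, (BRAF R minus BRAF NEG) minus (BRAF RG minus BRAF G), passed for 0 of 7, against 1.27% of all genes. At an unadjusted limma p under 0.05, the comparisons without a call had 2 of 7 members in BRAF RG against G (8.95% of all genes), 2 in BRAF G against NEG (7.78%) and 2 in BRAF R against RG (18.9%). They had 1 in BRAF G against luc G (7.8%) and 0 in the comparison of green with non-green BRAF cells (6.51%). These comparisons share arrays, BRAF G and luc RG among them, so their calls are not independent of each other.

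**Figure D2:**
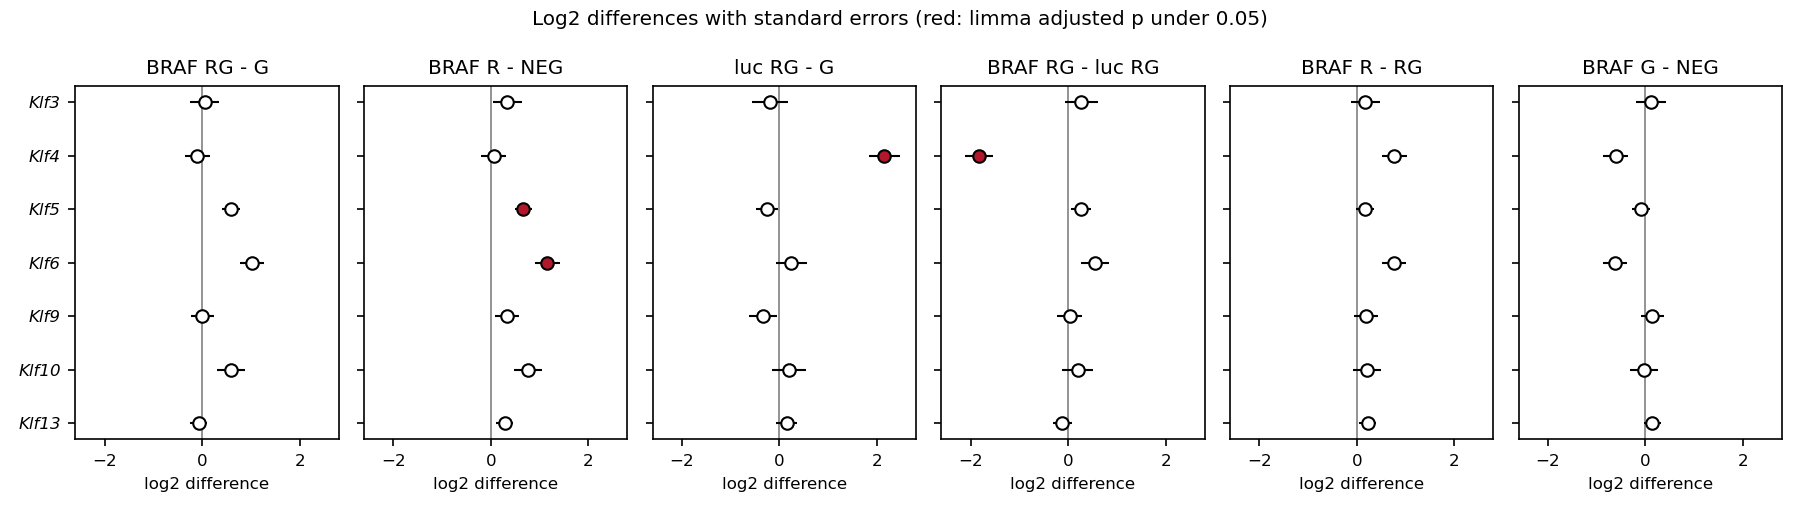
Fitted log2 differences (points) with standard errors (lines) of the 7 tested genes in 6 comparisons; red points passed a limma adjusted p of 0.05. Klf4 stands at 2.15 in luc RG minus luc G and at -1.83 in BRAF RG minus luc RG, and Klf5 and Klf6 at 0.67 and 1.16 in BRAF R minus BRAF NEG.

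Klf4 lies on chromosome 4 at 55527137 to 55532475 (GRCm38.p6) and encodes the factor linked to goblet and surface cells. In luc G it measured 9.35 and 8.96, and in luc RG 11.21 and 11.40. In BRAF G it measured 9.42, 9.36 and 9.95 in mice 1, 2 and 3, and in BRAF RG 8.92, 9.81 and 9.71. The red and non-red gates of the luciferase line stood far apart, whereas those of the BRAF line overlapped. In BRAF NEG it measured 9.97, 10.21 and 10.39, and in BRAF R 9.91, 10.65 and 10.18. The 2 BRAF gates without green thus overlapped each other and reached neither level of luc RG.

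Klf4 rose in luc RG over luc G by 2.15 ± 0.31 on the log2 scale (SE), 4.45-fold, with a limma adjusted p of 0.000603, and it was higher in 2 of 2 mice, by 1.87 and 2.44. The difference in BRAF RG against BRAF G was -0.10 ± 0.25 (limma adjusted p = 0.973), with 2 of 3 mice lower on this probe and 1 of 3 on each of the other 2 Klf4 probes. The difference between these effects was -2.25 ± 0.40 (limma adjusted p = 0.0279, and 0.00694 with the mouse as a block). Klf4 was lower in BRAF RG than in luc RG by 3.54-fold, a log2 difference of -1.83 ± 0.28 (limma adjusted p = 0.00114), and the 2 groups did not overlap. In BRAF G against luc G the difference was 0.43 ± 0.28 (limma adjusted p = 0.841). The call on the difference between effects rests on few mice: it was lost without either luciferase mouse and without BRAF mouse 2 or 3, where the limma adjusted p reached 0.147. On the tested probe the value itself stayed between -2.54 and -1.97 over all alternatives.

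Within the BRAF line, Klf4 was 0.77 ± 0.25 higher in R than in RG, in 3 of 3 mice and without overlap. The limma adjusted p was 0.120 without the mouse block, 0.0480 with a fixed mouse block and 0.0541 with a random one, so that call was made in the fixed-block fit and not in the other 2. Klf4 was 0.61 ± 0.25 lower in G than in NEG in 3 of 3 mice (limma adjusted p = 0.515). Between R and NEG the difference was 0.06 ± 0.25 (limma adjusted p = 0.905). In order of level, luc RG (mean 11.30) was followed by BRAF R (10.25), BRAF NEG (10.19), BRAF G (9.58), BRAF RG (9.48) and luc G (9.15). Of these neighbours, BRAF R and NEG, BRAF NEG and G, and BRAF G and RG did not differ past the threshold. luc RG and BRAF R, at 11.21 or more and 10.65 or less, did not overlap, and BRAF RG and luc G did; neither pair was tested.

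The array read Klf4 by 3 probes. In luc RG against luc G, the second probe was 2.35 ± 0.28 higher (limma adjusted p = 0.000202 over all 16005 kept probes), and the third 1.42 ± 0.36 higher (limma adjusted p = 0.0185). All 3 were lower in BRAF RG than in luc RG, the second by a log2 difference of -1.89 and the third of -1.18, with limma adjusted p of 0.000523 and 0.0237. The difference between the effects of the lines was -2.16 on the second probe (limma adjusted p = 0.0237) and -1.34 on the third (limma adjusted p = 0.207), so the third probe had the same sign without passing. In BRAF RG against BRAF G the sign turned by probe: the second stood at 0.19 and the third at 0.086, each higher in 2 of 3 mice, where the first stood at -0.10, and the limma adjusted p were 0.917, 0.977 and 0.968. The third probe also differed in BRAF R, where mouse 1 measured 9.01 and mice 2 and 3 measured 8.02 and 7.72. Over the 16 arrays the probe pairs correlated at 0.901, 0.756 and 0.875.

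**Figure D3:**
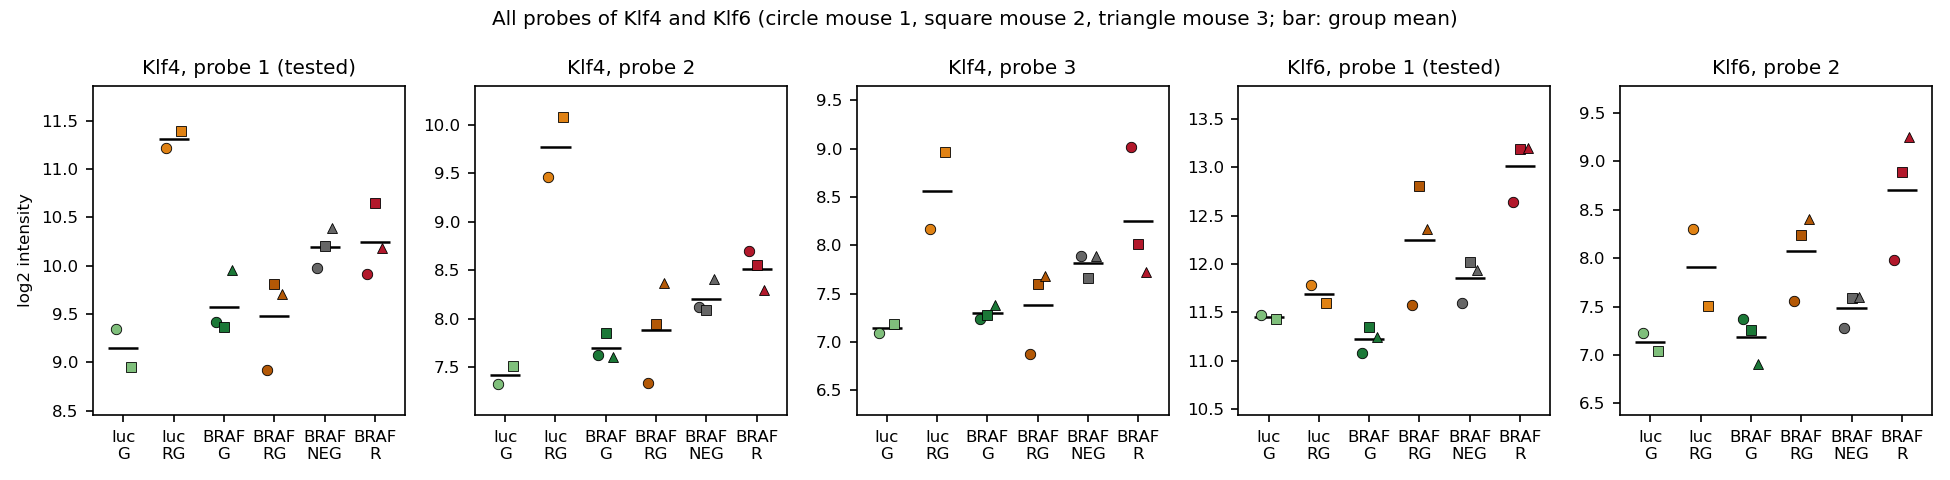
Log2 intensity of the 3 probes of Klf4 and the 2 probes of Klf6 by group (symbols are mice, bars group means, all axes of equal span). On the first 2 Klf4 probes both luc RG arrays lie above all other arrays, and on both Klf6 probes BRAF R has the highest mean.

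Of all genes, 11.9% passed in luc RG against luc G, 0.801% in BRAF RG against BRAF G and 12.6% in BRAF R against NEG. The share was 2.21% in BRAF R against RG and in BRAF G against NEG. It was 16.6% in BRAF RG against luc RG, and 0.481% for the difference between the effects of the lines. Goblet cell genes were read beside Klf4 in these comparisons. In luc RG against luc G, 12 of the 13 tested were higher and 0 lower, with a median log2 difference of 1.99 against -0.01 over all genes. Zg16, a granule lectin, was higher by 3.12, and Spink4, a secreted protease inhibitor, by 2.26, with limma adjusted p of 0.000122 for both. Atoh1, the factor that sets the secretory lineage, was higher by 1.86, and Tff3, a goblet peptide, by 1.83, with limma adjusted p of 0.000144 for both. Of the 13, 0 passed in BRAF RG against BRAF G, with a median of 0.57. In BRAF R against NEG 2 were higher and 1 lower, with a median of 0.52. In BRAF R against RG 3 of the 13 were higher and 0 lower, with a median of 0.69. In BRAF G against NEG 4 were lower and 0 higher, with a median of -0.65. In BRAF RG against luc RG 10 were lower and 0 higher, and the difference between the effects of the lines passed for 4, among them Atoh1 at -1.67 (limma adjusted p = 0.0270). Other cell type markers differed too. In luc RG against luc G, 12 of 14 enteroendocrine and 4 of 8 Paneth cell markers were higher, with list medians of 2.46 and 1.35. Klf4 did not pass in BRAF R against NEG or in BRAF RG against G. In these, 12 and 4 of 14 enteroendocrine markers were higher, as were 2 and 0 of 13 goblet genes. In BRAF RG against luc RG, 10 of 14 enteroendocrine markers were lower and 0 higher. The list medians there were -1.31 for enteroendocrine and -1.35 for goblet genes. For the difference between the effects of the lines, 0 of 14 enteroendocrine markers passed. Its list medians were -1.36 for enteroendocrine and -1.67 for goblet genes. Of 13 genes of dissociation and heat shock, 2 were higher and 1 lower in luc RG than in luc G, and 4 were higher and 1 lower in BRAF RG than in luc RG. The part of cell composition and of dissociation in the Klf4 differences was not tested.

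Of the genes of absorptive cells, which are also known to carry Klf4, 1 of 14 was higher in luc RG than in luc G (Krt20, a keratin of villus cells, by 1.90, limma adjusted p = 0.00365). The list median there was 0.94, against -0.01 over all genes. In BRAF RG against luc RG 1 of 14 was lower and 0 higher, with a list median of -0.86. The list median was also 0.54 in BRAF RG against G and 0.70 in BRAF R against NEG. Cell cycle genes went the other way, with 12 of 19 lower and 0 higher in luc RG than in luc G, among them Mcm2 at -1.71 and Mcm7 at -2.26 (limma adjusted p = 0.000362 and 0.000977). Between the lines, 12 of 19 were higher in BRAF RG than in luc RG. Cdkn1a, the cell cycle inhibitor p21 and a known target of Klf4, rose in all 3 red gates, by 2.09 in luc RG over G, 1.54 in BRAF RG over G and 1.91 in BRAF R over NEG (limma adjusted p = 0.000216, 0.00392 and 2.08e-05). In the 2 BRAF comparisons Klf4 itself did not pass. Of the 6 cell cycle inhibitors of this kind (CDK inhibitors) tested, 2 were higher and 1 lower in luc RG than in luc G. In BRAF RG against G 2 were higher and 0 lower, and in BRAF R against NEG 3 were higher and 0 lower. The genes whose levels over the 16 arrays were most like those of Klf4 were Pdia5 (r = 0.907), a protein folding enzyme of the endoplasmic reticulum, and Abcb9 (r = 0.896), a lysosomal transporter. These arrays share mice and a common normalization.

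Klf5, on chromosome 14 at 99298691 to 99313412, encodes the factor of dividing crypt cells. It measured 10.63, 10.46 and 9.93 in BRAF G and 10.90, 11.16 and 10.77 in BRAF RG. In BRAF NEG it measured 10.62, 10.19 and 10.49, and in BRAF R 11.20, 11.04 and 11.08. Red gates lay above their non-red gates in the BRAF line, with no overlap in either pair. In luc G it measured 10.97 and 10.90, and in luc RG 10.70 and 10.68, so both red arrays of that line lay below both non-red ones.

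Klf5 rose in BRAF R over NEG by 0.67 ± 0.18 (1.59-fold, limma adjusted p = 0.0258), in 3 of 3 mice. That call was lost without any 1 of the BRAF mice and without the R array of mouse 1 (limma adjusted p up to 0.167), while the value stayed between 0.58 and 0.72 over all alternatives. The difference in BRAF RG over G was 0.60 ± 0.18, also in 3 of 3 mice, and did not pass (limma adjusted p = 0.204). In luc RG against G it was -0.25 ± 0.22 (limma adjusted p = 0.506). The difference between the effects of the lines, 0.85 ± 0.29, did not pass either (limma adjusted p = 0.197). BRAF G was 0.59 ± 0.20 below luc G (limma adjusted p = 0.418) without overlap. The order of means was BRAF R (11.10), BRAF RG (10.94), luc G (10.93), luc RG (10.69), BRAF NEG (10.44) and BRAF G (10.34). R and RG overlapped, as did NEG and G, and neither pair differed past the threshold.

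Cell cycle genes and stem cell markers were read beside Klf5. Of all genes, 12.6% passed in BRAF R against NEG, 11.9% in luc RG against luc G and 0.801% in BRAF RG against BRAF G. In BRAF R against NEG, where Klf5 rose, 7 of 19 cell cycle genes and 7 of 12 intestinal stem cell markers were lower and 0 of either list higher. Mcm4, a helicase subunit that licenses replication, differed by -1.33 (limma adjusted p = 0.000149) and the stem cell gene Olfm4 by -1.19 (limma adjusted p = 0.000637). In luc RG against luc G, where the Klf5 difference was -0.25, 12 of 19 and 8 of 12 were lower. In BRAF RG against BRAF G, where it was 0.60, 0 of 19 and 1 of 12 were lower. Klf5 passed in neither, and 0 of either list were higher in either. The genes most like Klf5 over the 16 arrays were Plpp3 (r = 0.834), a lipid phosphatase, and the olfactory receptor gene Olfr446 (r = 0.769).

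Klf6 lies on chromosome 13 at 5861489 to 5870393 and is known as an early response factor. It measured 11.08, 11.34 and 11.25 in BRAF G and 11.58, 12.81 and 12.36 in BRAF RG. In BRAF NEG it measured 11.59, 12.02 and 11.94, and in BRAF R 12.64, 13.19 and 13.20. All red arrays of the BRAF line lay above all arrays of their non-red partner, with mouse 1 the lowest of its group in each of the 4 gates. In luc G it measured 11.47 and 11.43, and in luc RG 11.79 and 11.60, which is a narrow gap without overlap.

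Klf6 rose in BRAF R over NEG by 1.16 ± 0.25 (2.23-fold, limma adjusted p = 0.00732), in 3 of 3 mice by 1.04 to 1.26. The call was lost without BRAF mouse 3 (limma adjusted p = 0.0925), while the value stayed between 1.11 and 1.35 over all alternatives. In BRAF RG over G it was 1.03 ± 0.25 higher, in 3 of 3 mice by 0.50, 1.46 and 1.12. The limma adjusted p was 0.0807 without the mouse block and 0.00819 with it. R stood 0.76 ± 0.25 above RG in 3 of 3 mice (limma adjusted p = 0.122, and 0.0272 with the mouse block), although single arrays of the groups overlapped. G stood 0.63 ± 0.25 below NEG in 3 of 3 mice (limma adjusted p = 0.476). In the luciferase line RG stood 0.25 ± 0.31 above G in 2 of 2 mice (limma adjusted p = 0.646), and the difference between the lines' effects, 0.78 ± 0.40, did not pass (limma adjusted p = 0.417).

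The order of Klf6 means was BRAF R (13.01), BRAF RG (12.25), BRAF NEG (11.85), luc RG (11.70), luc G (11.45) and BRAF G (11.22). Of the neighbours that were tested, only R and RG passed, with the block. BRAF RG against luc RG was 0.55 ± 0.28 (limma adjusted p = 0.188), and these groups overlapped. The second Klf6 probe rose in BRAF R over NEG by 1.21 ± 0.30 (limma adjusted p = 0.0162 over all kept probes). In BRAF RG over G it stood 0.89 ± 0.30 higher (limma adjusted p = 0.313). The probes correlated at 0.897 over the 16 arrays. On the second probe luc RG measured 8.30 and 7.51 and luc G 7.23 and 7.04. That difference, 0.77 ± 0.37 (limma adjusted p = 0.188), was larger than the 0.25 of the first probe. The difference between the lines' effects was 0.12 ± 0.48 on the second probe (limma adjusted p = 0.945), against 0.78 on the first. BRAF RG against luc RG was 0.17 ± 0.34 on the second probe (limma adjusted p = 0.768).

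**Figure D4:**
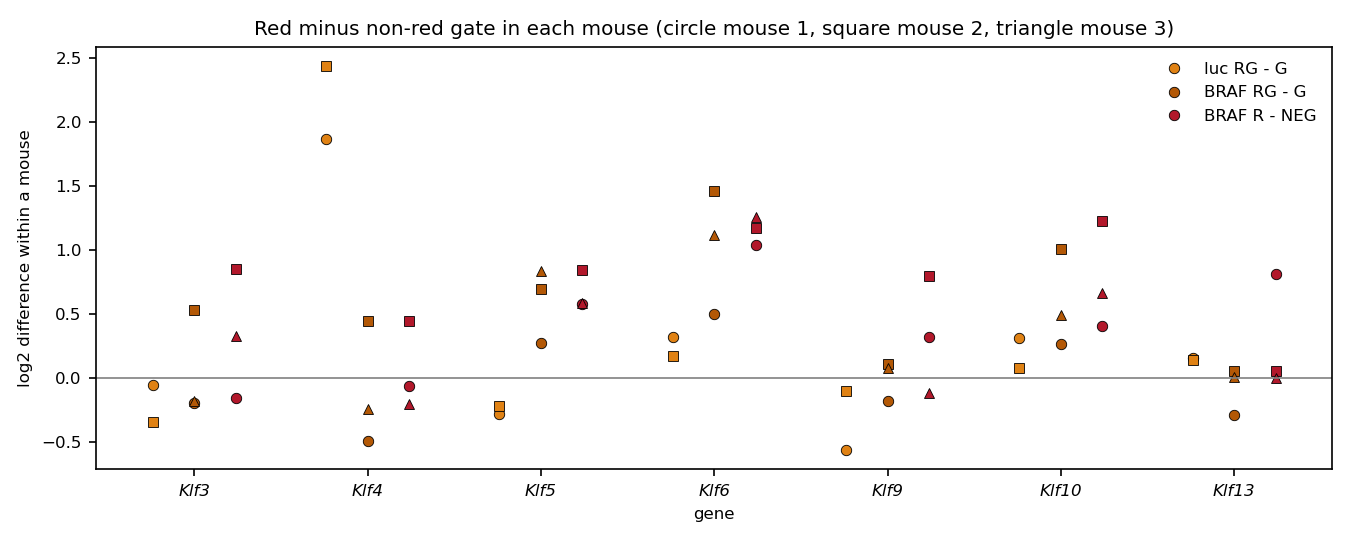
Log2 difference of the red gate minus the non-red gate in each mouse for the 7 tested genes, in the luciferase line (G to RG) and the BRAF line (G to RG, and NEG to R). Klf4 is above 0 in both luciferase mice, at 1.87 and 2.44, and Klf6, Klf5 and Klf10 are above 0 in every BRAF mouse in both pairs of gates.

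Klf10, on chromosome 15 at 38291464 to 38300711, encodes a TGF-beta inducible repressor. It measured 7.61, 7.80 and 7.85 in BRAF G and 7.87, 8.81 and 8.35 in BRAF RG. In BRAF NEG it measured 7.46, 7.90 and 8.00, and in BRAF R 7.87, 9.13 and 8.66. Mouse 1 was the lowest in all 4 gates, and within each mouse both red gates lay above their partner. In luc G it measured 8.01 and 7.89, and in luc RG 8.32 and 7.97. R stood 0.77 ± 0.28 above NEG (limma adjusted p = 0.0921, and 0.0144 with the mouse block), and RG 0.59 ± 0.28 above G (limma adjusted p = 0.574, and 0.173 with the block). The luciferase difference was 0.20 ± 0.35 (limma adjusted p = 0.754). Over the 16 arrays Klf10 varied with Klf6 (r = 0.822) and with Klf3 (r = 0.748), whereas r was -0.12 between Klf4 and Klf5.

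The lists of genes that answer the same pathways were read in the same gates. Of all genes, 12.6% passed in BRAF R against NEG, 0.801% in BRAF RG against G and 11.9% in luc RG against G. In BRAF R against NEG, 7 of 17 immediate-early genes were higher and 0 lower, among them Maff by 1.56 and Fosl1, a subunit of AP-1, by 1.95 (limma adjusted p = 0.000614 and 0.00529). In BRAF RG against G, 1 of 17 was higher (Maff by 1.10, limma adjusted p = 0.0465), with a list median of 0.94, and in luc RG against G 4 were higher and 1 lower, with a median of 0.72. The ERK feedback list holds genes that dampen the signal of BRAF and others, such as the ligand genes Ereg and Hbegf. Of its 12 tested genes, 6 were higher in R than in NEG. In BRAF RG against G 2 were higher, and in luc RG against G 2. The list medians were 0.81, 0.55 and 0.24 in that order. Dusp6, a phosphatase of ERK, was higher by 1.89 in R than in NEG and by 1.58 in BRAF RG than in G (limma adjusted p = 0.000936 and 0.0229). Of 13 early genes of TGF-beta and BMP signalling, 0 were higher and 1 lower in R than in NEG (Id2 at -1.02, limma adjusted p = 0.0120). In BRAF RG against G 0 of these 13 passed, and in luc RG against G 1 was higher and 0 lower. The medians of that list were 0.17, 0.10 and 0.23 in the same order. Of 13 genes of dissociation and heat shock, 0 passed in BRAF RG against G, and 1 was higher and 1 lower in R than in NEG. The genes most like Klf6 were Itprid2 (r = 0.963) and Ehbp1l1 (r = 0.962), and those most like Klf10 were Tmc7 (r = 0.910) and Frk (r = 0.906), a kinase of epithelial cells.

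BRAF NEG held leukocyte RNA that the other gates had little of, with 18 of 19 leukocyte markers lower in R than in NEG and 18 of 19 lower in G than in NEG. Ptprc, the pan-leukocyte gene CD45, averaged 9.50 in NEG and 6.26 to 6.58 in the other groups, where it lay below the array median on every array. Differences of Klf4, Klf5, Klf6 and Klf10 between R or G and NEG stand beside this difference in leukocyte RNA, whose part in them was not tested. Other cell type markers differed in the same comparisons: in R against NEG, 12 of 14 enteroendocrine markers were higher (list median 1.44) and 6 of 9 tuft cell markers were lower. In BRAF RG against G, 4 of 14 enteroendocrine markers were higher and 5 of 9 tuft cell markers were lower. In BRAF R against RG, 3 of 14 enteroendocrine markers were higher, and 3 of 12 stem cell markers and 5 of 19 cell cycle genes were lower. The part of these genes and markers in the Klf4, Klf5, Klf6 and Klf10 differences was not tested.

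Klf3, on chromosome 5 at 64803521 to 64832901, passed in no comparison. It measured 9.57, 9.61 and 10.28 in BRAF G and 9.37, 10.14 and 10.10 in BRAF RG. The BRAF NEG arrays read 9.46, 9.63 and 10.03, and those of BRAF R 9.30, 10.48 and 10.36. The luc G arrays read 9.78 and 9.82, and those of luc RG 9.73 and 9.47. Groups of the BRAF line overlapped throughout, with BRAF mouse 1 the lowest in each gate. The largest of its log2 differences within a line was 0.34 ± 0.30, in R against NEG (limma adjusted p = 0.491). Its means ran from 9.60 in luc RG to 10.05 in BRAF R, and no neighbours in that order differed past the threshold where tested. The genes most like it were Rin2 (r = 0.870) and Tlr3 (r = 0.847), a sensor of double-stranded RNA.

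Klf9, on chromosome 19 at 23141226 to 23168129, is known to be induced by glucocorticoids and passed in no comparison. It measured 8.79, 8.84 and 8.80 in BRAF G and 8.61, 8.95 and 8.88 in BRAF RG. The BRAF NEG arrays read 8.34, 8.80 and 8.86, and those of BRAF R 8.66, 9.60 and 8.74, where mouse 2 alone stood high. The luc G arrays read 9.03 and 9.20, and those of luc RG 8.47 and 9.10. The limma adjusted p was 0.387 or above in each of the 9 comparisons, with a difference of 0.33 ± 0.24 in R against NEG and of -0.33 ± 0.29 in luc RG against G. Its means ran from 8.67 in BRAF NEG to 9.12 in luc G. Of 14 glucocorticoid response genes, 2 were higher and 1 lower in R than in NEG and 1 was lower in luc RG than in luc G (Fkbp5, a chaperone of the receptor, at -1.35, limma adjusted p = 0.0113). The genes most like Klf9 were Gata5 (r = 0.897), a gut transcription factor, and Atp9a (r = 0.841).

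Klf13, on chromosome 7 at 63886351 to 63938915, encodes a factor first described in human T cells and passed in no comparison. It measured 7.61, 7.18 and 7.30 in BRAF G and 7.33, 7.24 and 7.30 in BRAF RG. The BRAF NEG arrays read 7.08, 7.31 and 7.29, and those of BRAF R 7.89, 7.36 and 7.29, so that the R array of mouse 1 was the highest of all. The luc G arrays read 7.17 and 7.35, and those of luc RG 7.33 and 7.49. The R minus NEG difference of 0.29 ± 0.17 came with a limma adjusted p of 0.305, and within mice the difference was 0.81 in mouse 1 and 0.054 and 0 in mice 2 and 3. Its means ran from 7.23 in BRAF NEG to 7.52 in BRAF R. The genes most like it were Ank3 (r = 0.822), which codes for ankyrin-G, and Tmem160 (r = 0.819).

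Klf2, on chromosome 8 at 72319062 to 72321654, has 1 probe, which lay above the array median on 1 of 16 arrays and was not tested in the main fit. That array was luc RG of mouse 2, at 7.03, and luc RG of mouse 1 measured 6.78. The other groups ran from 6.17 to 6.69, so luc RG was the highest group, at a level where background makes up much of the signal. In the fit without a filter, Klf2 was called in luc RG against luc G and in BRAF RG against luc RG. In BRAF NEG, where leukocyte markers were high, Klf2 measured 6.25 to 6.69 and lay below the median on all 3 arrays.

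Among the other Kruppel-like and Sp factors, 15 of 18 listed genes had a probe and 10 were tested. Of these, 2 were lower in luc RG than in luc G, Sp5, a target of Wnt signalling, by a log2 difference of -1.54 and Sp1, a widely expressed activator, by -0.71 (limma adjusted p = 0.0135 and 0.0145). In BRAF RG against luc RG, 2 were higher, Klf16 by 1.18 and Sp1 by 0.54 (limma adjusted p = 0.00177 and 0.0306). Sp4 was lower in R than in NEG by a log2 difference of -0.83 (limma adjusted p = 0.00291). Of the 10, 0 passed in BRAF RG against BRAF G.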

How the data were processed

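Sorted duodenal crypt fractions from 3 BRAF and 2 luciferase mice were measured on 16 arrays. The intensity values analysed are those the authors deposited. GenomeStudio is named in the submitters' processing notes. Its version and the normalization are not given in the sources used here. From the values, the sorted intensities of all arrays agree within 1.2, so the arrays had been brought to 1 distribution, with a lowest value of 55.7. A second table, of non-normalized values, was not used, because its 32 columns of values carry names that match no array's labels.

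Probes were named by the platform annotation (23978 with 1 gene symbol, 0 changed against RefSeq by identifier, 1719 unnamed). Log2 intensities were fitted by lmFit and eBayes (limma 3.58.1, R 4.3.3) over all 6 groups with no covariate, with 10 residual degrees of freedom, so the groups share 1 estimate of spread. The filter kept 16005 probes, and 10607 genes were tested by their brightest kept probe. Values with ± are model standard errors unless said otherwise.

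Same-numbered arrays of a line come from the same mouse, as each array's description label names its mouse, and deviations from group means correlated above 0.1 in 18 of 18 same-mouse pairs of the BRAF line (luciferase: r = 0.0457, so there the pairing rests on the labels alone). The mouse as a block was an alternative fit, and its adjusted p stands beside a result where it changes the call. Other alternatives were no filter and a stricter filter (8 arrays), subtraction of each array's lowest value with 16 then added, array weights, all probes, and leaving out each mouse or 1 BRAF R array. The tests were tried on simulated data. The members and gene lists were chosen with earlier results of these data known. All members and all their probes are named, with the 2 genes of highest Pearson r to each tested member and at most 4 called genes of a list by lowest adjusted p. Replicates are separate mice. No chip or processing batch is named in the sources used here.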

Additional observations from a re-analysis of the deposited data

Results flagged for a closer look

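Klf4 differed between the lines in its red-gate effect: luc RG exceeded luc G in 2 of 2 mice, while BRAF RG minus BRAF G was positive in 1 of 3 on the tested probe and in 2 of 3 on each of the other 2 probes. The test of the difference itself gave a log2 value of -2.25 (limma adjusted p = 0.0279). Klf5 was higher in RG than in G in 3 of 3 BRAF mice and lower in 2 of 2 luciferase mice. The difference between these effects was 0.85, and its test did not pass (limma adjusted p = 0.197).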

How the results depend on the processing

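Of 63 results (7 genes in 9 comparisons), 5 were called, and 2 of these kept their call under every alternative run. These were Klf4 in luc RG minus luc G and in BRAF RG minus luc RG. On the tested probe they ranged from 1.87 to 2.44 and from -1.99 to -1.55. The third Klf4 probe passed in both with smaller differences, 1.42 and -1.18. A call appeared in no fit for 50 of the 63. With the mouse as a fixed block (as a random block in brackets) the members called became 1 [1] in BRAF RG minus G and 2 [1] in R minus RG. The genes called became 201 [168] in BRAF RG minus G, 573 [593] in R minus RG and 221 [220] in the comparison of effects between lines. With array weights, members called became 1 in BRAF RG minus G, 2 in G minus NEG and 1 in BRAF G minus luc G. The genes called became 292, 473 and 1054 there, 142 in R minus RG and 625 in BRAF RG minus luc RG. With no filter, which lets in Klf2, members called became 2 in luc RG minus G and 2 in BRAF RG minus luc RG. The added call in both was Klf2, at a level where background makes up much of the signal, and nothing is read from it. With the stricter filter, genes called became 53 in G minus NEG and 18 in the comparison of R minus NEG with RG minus G. Subtraction of each array's lowest value gave 29 in the comparison between lines. The causes were not tested.

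Leaving out 1 mouse or the R array of BRAF mouse 1, members called ranged from 0 to 1 in BRAF RG minus G, 0 to 2 in R minus NEG, 1 to 2 in BRAF RG minus luc RG and 0 to 1 in the comparison between lines. Genes called ranged from 17 (without BRAF mouse 3) to 131 in BRAF RG minus G, 612 to 1279 in R minus NEG, 341 (without luciferase mouse 1) to 1700 in luc RG minus G, 135 to 252 in G minus NEG, 5 (without BRAF mouse 1) to 208 in R minus RG, 889 to 2269 in BRAF RG minus luc RG, 1 to 23 in BRAF G minus luc G, 0 (without luciferase mouse 2) to 183 in the comparison between lines, and 75 to 123 in that of R minus NEG with RG minus G. With 1 luciferase mouse left, its spread is assumed to be that of the other groups.

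Signs turned only for results without a call, the other Klf4 probes in BRAF RG minus G among them (0.19 and 0.086). With array weights these were Klf4 in BRAF RG minus G (0.018), R minus NEG (-0.0146) and their difference (-0.033), and Klf3 in G minus NEG (-0.066) and BRAF G minus luc G (-0.064). With a mouse or array left out, the values in BRAF RG minus G ran from -0.19 to 0.17 for Klf3, -0.37 to 0.10 for Klf4, -0.051 to 0.094 for Klf9 and -0.14 to 0.032 for Klf13. Klf4 ran from -0.13 to 0.23 in R minus NEG. In G minus NEG the ranges were -0.28 to 0.14 for Klf5, -0.0078 to 0.25 for Klf9, -0.13 to 0.020 for Klf10 and -0.060 to 0.27 for Klf13. Klf9 ran from -0.041 to 0.36 in R minus RG and -0.29 to 0.35 in BRAF RG minus luc RG, where Klf10 ran from -0.034 to 0.44. In BRAF G minus luc G the ranges were -0.21 to 0.15 for Klf3 and -0.022 to 0.19 for Klf13. In the comparison of R minus NEG with RG minus G they were -0.049 to 0.23 for Klf5, -0.071 to 0.34 for Klf6 and -0.0055 to 0.55 for Klf13. Values near the array median, such as those of Klf2, are limited by background.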
